A study of Mus musculus with 6 samples.

Results

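The levels of 10 genes of the BCL2 family, which sets whether a cell survives or dies by the mitochondrial route, were followed in T-cell lymphomas of Dnmt3b+/- mice. The genes are Bcl2, Bcl2l1, Mcl1, Bcl2l11, Bax, Bak1, Bbc3, Pmaip1, Bid and Bmf, chosen by name, and each had 1 row among the 34245 genes of the expression table. The study asked how loss of 1 allele of the DNA methyltransferase Dnmt3b affects the development of blood cancers. RNA-seq was done on 3 independent peripheral T-cell lymphomas (PTCL) taken from lymph nodes of terminally sick FVB/N mice, called tumors 1, 2 and 3 here. All 3 tumors carried the same genotype, a germline Dnmt3b+/- with a conventional knockout allele and no further transgene. They arose spontaneously and were whole tumor samples rather than sorted cells, and the ages of these 3 animals are not given in the sources used here. Bisulfite sequencing of lymphomas and control T cells were not analysed here, so every value describes how the tumors differ from each other and none describes a change from normal T cells.

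BCL2 family proteins meet at the outer membrane of the mitochondrion. BCL2, BCL-XL (the product of Bcl2l1) and MCL1 keep a cell alive by holding back BAX and BAK, the effectors that open pores and release cytochrome c. BH3-only proteins such as BIM (Bcl2l11), PUMA (Bbc3), NOXA (Pmaip1), BID and BMF respond to stress or lost survival signals by occupying the survival proteins or by activating the effectors. Mature T cells are known to depend on BCL2 and MCL1, and BIM is the main counterpart of BCL2 in the removal of T cells when cytokines run out.

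Levels are FPKM, which divide the sequenced fragments of a gene by the length of its exons and by library depth, so they can be compared between genes as levels per length. Depth was recovered from the value that genes without a read share, and came to 30726570, 18969988 and 20770928 reads for tumors 1, 2 and 3. Intervals given on ratios are exact 95% intervals from the recovered reads and cover counting error only. Dnmt3b itself had 0.975, 1.55 and 1.25 FPKM in tumors 1, 2 and 3, which does not separate the intact from the targeted allele.

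The lymph node tumors held T cell transcripts at high levels, as their label says. The 8 T cell markers were above 1 FPKM in every tumor and summed to 1161, 872 and 1250 FPKM in tumors 1, 2 and 3. Cd8b1, a chain of the CD8 co-receptor, was the most abundant with 435, 166 and 443 FPKM in tumors 1, 2 and 3, while Cd4 had 28.4, 4.28 and 8.22 FPKM. Tumor 2 had the lowest levels of both CD8 chains. The CD3 genes did not share an order, as Cd3e and Cd3g were highest in tumor 2 (78.1 and 106 FPKM) and Cd3d, the most abundant of them, in tumor 3 (183 FPKM).

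The libraries stood apart in transcripts of other cells. The 6 macrophage and monocyte markers summed to 400, 134 and 35.6 FPKM in tumors 1, 2 and 3, led by Lyz2 with 215, 33.1 and 20.3 FPKM. All 6 had reads in each tumor, and all but Cd68 were highest in tumor 1. The 5 neutrophil markers followed another order, with sums of 37.3, 1.44 and 16.1 FPKM in tumors 1, 2 and 3, S100a9 as the most abundant gene and Elane without a read in any tumor. The 6 erythroid markers summed to 202, 38.4 and 4.76 FPKM in tumors 1, 2 and 3, with Hba-a1 as the most abundant. Plasma cell markers summed to 862, 199 and 217 FPKM in tumors 1, 2 and 3, of which Jchain made up 814, 185 and 179 FPKM, while Mzb1 (11.0, 2.62 and 25.8 FPKM) and Sdc1 were highest in tumor 3. Tumor 1 thus had the highest sum of these 4 lists, and it was also the highest for the 5 dendritic cell markers (9.87, 4.63 and 3.29 FPKM, led by Itgax). Of these markers Zbtb46 alone was highest in tumor 2, with 0.528, 0.638 and 0.266 FPKM in tumors 1, 2 and 3.

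Tumor 3 had the most B cell transcripts, with a sum of 104 FPKM over 5 markers against 56.2 in tumor 1 and 13.7 in tumor 2, and Cd79a as the most abundant. Ighm, the sixth gene of that list, had no row in the table. Tumor 2 carried transcripts of pancreatic acinar cells and fibroblasts. The 6 acinar markers, led by Ctrb1, summed to 70.5, 386 and 0.603 FPKM in tumors 1, 2 and 3, and Ctrb1 and Clps had no read in tumor 3. The 6 fibroblast markers, led by Col1a1, summed to 10.5, 42.6 and 0.353 FPKM. Dcn alone was highest in tumor 1, and Pdgfra had no read in tumor 3. The 4 endothelial markers, led by Pecam1, summed to 13.7, 13.1 and 5.12 FPKM. Cdh5 (0.805, 1.39 and 0.126 FPKM) and Tie1 (0.265, 0.461 and 0.0392 FPKM) were highest in tumor 2.

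The 4 natural killer cell markers, led by Klrd1, which cytotoxic T cells also express, summed to 57.9, 110 and 73.7 FPKM. They did not share an order, as Ncr1 was highest in tumor 1 and Eomes in tumor 3. The 5 genes of dividing cells, led by Pcna, summed to 184, 112 and 93.1 FPKM in tumors 1, 2 and 3, and each of the 5 was highest in tumor 1. In such bulk samples, fewer cells of a type and less RNA per cell cannot be told apart.

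**Figure D1:**
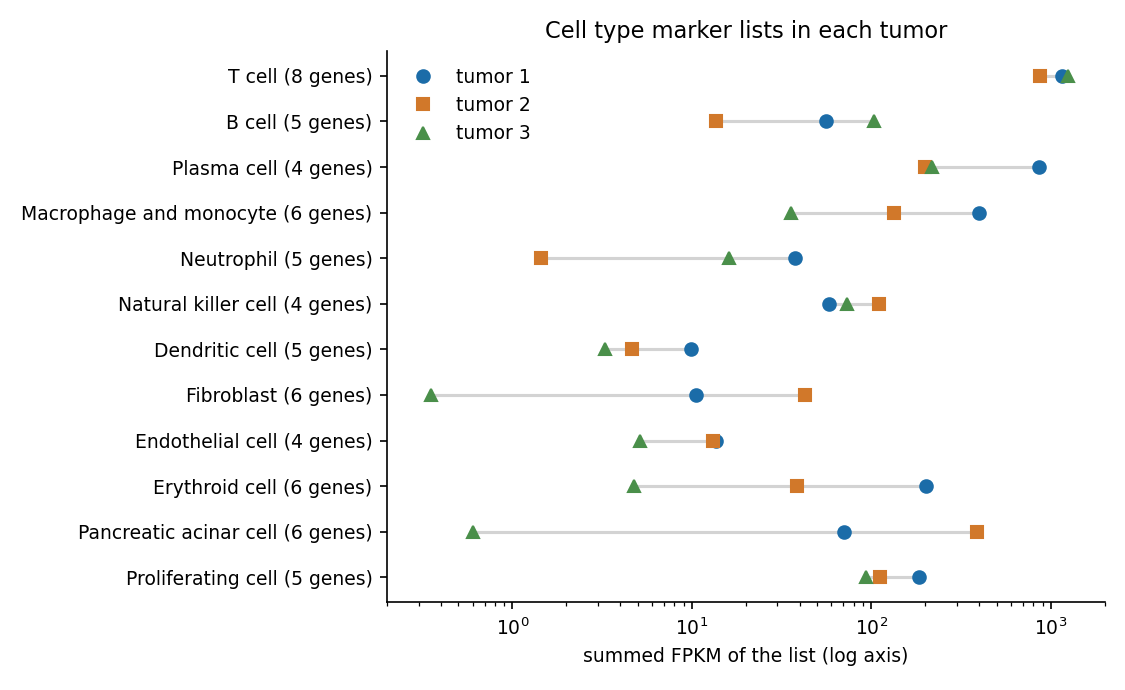
Summed FPKM of each cell type marker list (horizontal log axis) in tumors 1 (circles), 2 (squares) and 3 (triangles), with a grey line from the lowest to the highest tumor. T cell markers lie between 872 and 1250 FPKM in all 3 tumors, while the acinar sum runs from 0.603 in tumor 3 to 386 in tumor 2.

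Of the 10 family members, 9 were above 1 FPKM in every tumor, against 28.4% of all 34245 genes. The exception was Bmf, which stayed below 1 FPKM in each tumor. The levels covered a wide range, from a mean of 62.6 FPKM for Mcl1 to 0.370 FPKM for Bmf, and the genes of each functional group are described in turn.

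The survival gene Bcl2 (ENSMUSG00000057329; chr1:106538178-106714274 of mm10, minus strand) was abundant in all 3 tumors. It had 55.7, 54.7 and 73.5 FPKM in tumors 1, 2 and 3, with a mean of 61.3 ± 10.6 (SD, n = 3), on 15677, 9496 and 13971 reads. Tumors 1 and 2 lay close together and tumor 3 was higher, 1.34 times tumor 2 (interval 1.31 to 1.38). As deposited, the B cell marker sums (56.2, 13.7 and 104 FPKM in tumors 1, 2 and 3) followed the same order, as did the T cell marker sums. With median-of-ratios factors Bcl2 was lowest in tumor 1 instead, with 50.5, 55.8 and 78.1 in tumors 1, 2 and 3. The part of B and T cells in the level of Bcl2 was not tested. Bcl2 ranked 474, 516 and 354 among all genes of tumors 1, 2 and 3. An antisense gene, D630008O14Rik, shares 558 bases of the exons of Bcl2, or 6.09% of their length, and had 19.2, 22.6 and 24.7 FPKM. Whether strand was used in counting is not given in the sources used here, so reads in the shared bases cannot be assigned to either gene.

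Mcl1 (ENSMUSG00000038612; chr3:95658788-95663176, plus strand), whose protein is short-lived and needs steady synthesis, had the highest mean of the 10 genes as deposited, 62.6 ± 22.0 FPKM (SD, n = 3). Its values were 87.2, 44.7 and 56.0 FPKM in tumors 1, 2 and 3. Tumor 1 stood above the other two, at 1.95 times tumor 2 (interval 1.87 to 2.03). Tumor 1 was also the tumor with the highest sums of macrophage, neutrophil, erythroid and dividing cell markers given above, and their part in the level of Mcl1 was not tested.

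Bcl2l1 (ENSMUSG00000007659; chr2:152780668-152831728, minus strand), which encodes BCL-XL, was much lower than the other survival members. Its FPKM was 5.22, 8.71 and 9.84 in tumors 1, 2 and 3, with a mean of 7.92 ± 2.41 (SD, n = 3). Tumor 1, the highest for Mcl1, was the lowest for Bcl2l1. Bcl2 exceeded Bcl2l1 by 10.7, 6.27 and 7.47 times in tumors 1, 2 and 3, so that Bcl2l1 supplied between 3.53% and 8.06% of the summed FPKM of the survival members. Mcl1 supplied 58.9%, 41.4% and 40.2% of that sum in tumors 1, 2 and 3, and Bcl2 led in tumors 2 and 3.

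The other survival genes of the family were measured too. Bcl2a1a, Bcl2a1b and Bcl2a1d encode A1, a survival protein of activated lymphocytes and myeloid cells, and are near-identical copies whose reads cannot be assigned with certainty. Reads below a mapping quality limit were left out in the study, so reads shared by the copies may be missing from these levels. Bcl2a1b had 11.2, 1.23 and 4.66 FPKM in tumors 1, 2 and 3, and Bcl2a1a had 6.20, 0.579 and 3.17 FPKM. Bcl2a1d had 1.21, 0.0611 and 0.446 FPKM, the value in tumor 2 resting on 1 read. All 3 copies shared 1 order, highest in tumor 1 and lowest in tumor 2. The neutrophil marker sums (37.3, 1.44 and 16.1 FPKM) and the plasma cell marker sums (862, 199 and 217 FPKM) had this order too. With 3 tumors such matches are easily met, and the part of those cells was not tested. Bcl2l2 stayed below 1 FPKM with 0.576, 0.402 and 0.442 FPKM, and Bcl2l10 had no read in any tumor, which allows up to 0.0800, 0.130 and 0.118 FPKM (3 reads).

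Bax (ENSMUSG00000003873; chr7:45461697-45466898, minus strand) was the more abundant of the pore-forming effectors. It had 29.9, 29.7 and 56.2 FPKM in tumors 1, 2 and 3, with a mean of 38.6 ± 15.3 (SD, n = 3), on 1447, 888 and 1840 reads. Tumors 1 and 2 differed by less than 1 FPKM, and tumor 3 was 1.89 times tumor 2 (interval 1.75 to 2.05). Tumor 3 had the fewest macrophage, fibroblast and acinar transcripts and the most B cell transcripts, and the part of these cells in the level of Bax was not tested. Bax shares 192 bases, 12.2% of its exon length, with Gm45808 on the same strand, a gene that had 10.4, 13.0 and 18.1 FPKM.

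Bak1 (ENSMUSG00000057789; chr17:27019810-27029009, minus strand), the gene of BAK, varied less. Its FPKM was 21.6, 28.3 and 20.1 in tumors 1, 2 and 3, with a mean of 23.3 ± 4.38 (SD, n = 3). Here tumor 2 was the highest, at 1.41 times tumor 3 (interval 1.29 to 1.53). The antisense gene Ggnbp1 overlaps 437 bases of the exons of Bak1, or 18.2%, with 4.14 to 4.76 FPKM. Bok, the remaining effector of the family, had 0.318 and 0.544 FPKM in tumors 1 and 2 and no read in tumor 3.

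Among the BH3-only genes, Bcl2l11 (ENSMUSG00000027381; chr2:128126038-128162547, plus strand), the gene of BIM, had the highest mean. It had 13.7, 17.0 and 8.66 FPKM in tumors 1, 2 and 3, with a mean of 13.1 ± 4.20 (SD, n = 3). Tumor 3, where Bcl2 and Bax were highest, was the lowest for Bcl2l11, and tumor 2 exceeded it by 1.96 times (interval 1.84 to 2.09).

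Bbc3 (ENSMUSG00000002083; chr7:16308393-16318205, plus strand), which encodes PUMA, had the widest spread, as deposited, of the members with a mean of at least 1 FPKM. Its values were 3.49, 11.0 and 14.4 FPKM in tumors 1, 2 and 3, on 228, 442 and 637 reads. Tumor 1 lay well below the other two, and tumor 3 was 4.13 times tumor 1 (interval 3.55 to 4.83). The mean was 9.63 ± 5.59 FPKM (SD, n = 3). The lowest tumor for Bbc3 was the one with the highest sums of macrophage, erythroid and dividing cell markers, whose part in this was not tested.

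Pmaip1 (ENSMUSG00000024521; chr18:66458604-66465550, plus strand), the gene of NOXA, which binds MCL1 and promotes its degradation, showed another order. It had 13.4, 4.50 and 7.73 FPKM in tumors 1, 2 and 3, on 1087, 226 and 425 reads, with a mean of 8.54 ± 4.49 (SD, n = 3). Tumor 1 was 2.97 times tumor 2 (interval 2.57 to 3.44), and tumor 3 lay between them. Tumor 3 did so too for Mcl1 and for the neutrophil and plasma cell marker sums. The part of such cells in the level of Pmaip1 was not tested. The ratio of Mcl1 to Pmaip1 was 6.52, 9.93 and 7.24 in tumors 1, 2 and 3. Bbc3 and Pmaip1 therefore changed places, with a ratio of Bbc3 to Pmaip1 of 0.261, 2.44 and 1.87 in tumors 1, 2 and 3.

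Bid (ENSMUSG00000004446; chr6:120891930-120916853, minus strand), which links death receptors to the mitochondrion once caspase-8 has cut its protein, was the steadiest of the 10 genes as deposited. It had 6.05, 7.62 and 6.03 FPKM in tumors 1, 2 and 3, with a mean of 6.57 ± 0.909 (SD, n = 3) and a highest to lowest ratio of 1.26 (interval 1.11 to 1.44). With FPKM rescaled to equal sums Bcl2 was steadier, at 1.242 against 1.365 for Bid. It shares 628 exon bases, 17.7% of its length, with Bcl2l13 on the other strand. Bmf (ENSMUSG00000040093; chr2:118528757-118549687, minus strand), whose protein is tied to the cytoskeleton in healthy cells, was the lowest member with 0.663, 0.311 and 0.137 FPKM. These values rest on 107, 31 and 15 reads. Tumor 1 was 4.82 times tumor 3, but the interval of that ratio ran from 2.80 to 8.92.

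**Figure D2:**
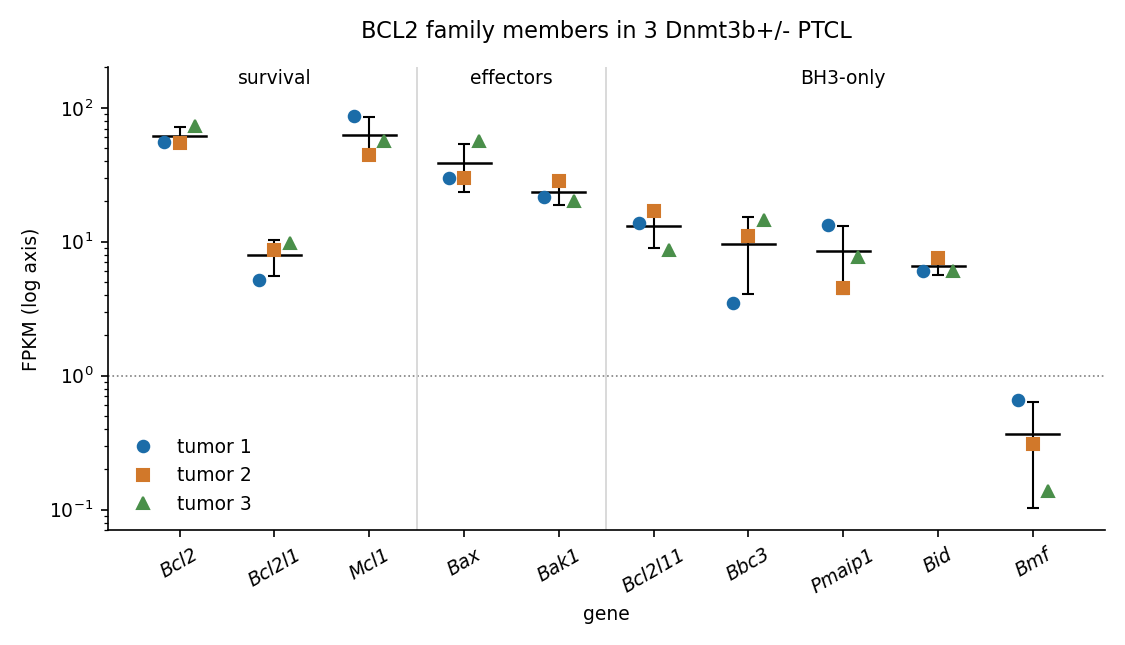
FPKM (log axis) of the 10 genes, grouped as survival members, effectors and BH3-only members, in tumors 1 (circles), 2 (squares) and 3 (triangles). Horizontal bars are means and error bars SD over the 3 tumors, and the dotted line marks 1 FPKM, which Bmf alone stays below, while Bcl2 and Mcl1 have the highest means, 61.3 and 62.6 FPKM.

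Bad and Bik, BH3-only genes outside the 10, were also detected. Bad, whose protein is controlled by growth factor signaling, had 3.78, 8.43 and 5.25 FPKM in tumors 1, 2 and 3. Bik differed little between the tumors, with 1.97, 1.84 and 1.74 FPKM, and Hrk had no read, which allows up to 0.0172, 0.0279 and 0.0254 FPKM. Among the more distant relatives, Bnip3l, a receptor for the removal of mitochondria, was the most abundant with 19.5, 13.2 and 19.8 FPKM. Bnip3 had 1.21, 3.26 and 0.744 FPKM, Bcl2l12 between 5.65 and 6.23 FPKM, and Bcl2l13 between 3.20 and 5.12 FPKM.

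Summed by role as deposited, the BH3-only genes were the steadiest group although their members varied. The spread of these sums was not computed under the other scalings. The 5 BH3-only members summed to 37.3, 40.4 and 37.0 FPKM in tumors 1, 2 and 3, a highest to lowest ratio of 1.09. Within this sum, Bcl2l11 held 36.8%, 42.1% and 23.4% in tumors 1, 2 and 3, Bbc3 held 9.37%, 27.2% and 39.0%, and Pmaip1 held 35.9%, 11.1% and 20.9%. Bcl2l11 was thus the largest contributor in tumors 1 and 2 and Bbc3 in tumor 3. The survival members summed to 148, 108 and 139 FPKM and the effectors to 51.4, 58.0 and 76.3 FPKM.

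**Figure D3:**
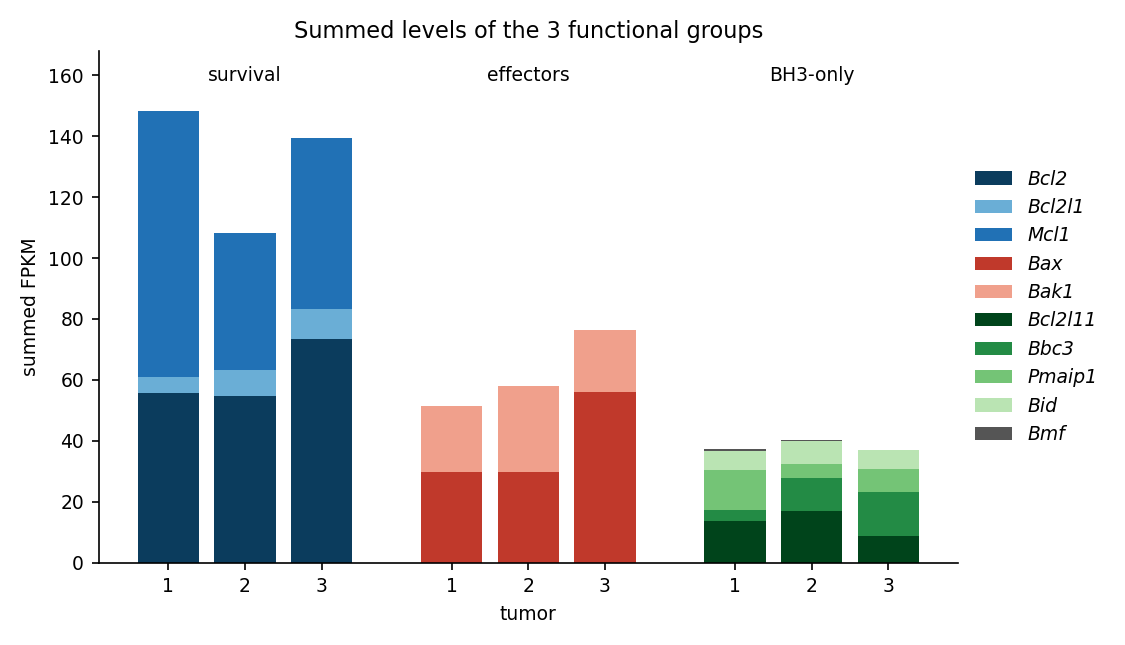
Summed FPKM of the survival members, effectors and BH3-only members in each tumor, with the share of each gene stacked in its own color. As deposited, the BH3-only sums lie between 37.0 and 40.4 FPKM with differing make-up, and the survival sums between 108 and 148 FPKM.

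Ratios within a library do not depend on how libraries are scaled to each other. The summed FPKM of the survival members divided by that of the BH3-only members was 3.97, 2.68 and 3.76 in tumors 1, 2 and 3, with a mean of 3.47 ± 0.697 (SD, n = 3). Survival transcripts exceeded BH3-only transcripts in all 3 tumors, and the excess was smallest in tumor 2. The value depends on the genes counted, since it was 1.82 without Mcl1 and 7.06 as a ratio of geometric means, and transcript ratios do not give protein ratios.

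Single pairs varied more than the sums. Bcl2 exceeded Bcl2l11 by 4.06, 3.22 and 8.48 times in tumors 1, 2 and 3, with a mean of 5.25 ± 2.83 (SD, n = 3). Tumor 3 set the high value, and without it the mean was 3.64. Bax exceeded Bak1 by 1.39, 1.05 and 2.79 times in tumors 1, 2 and 3, with a mean of 1.74 ± 0.925 (SD, n = 3), or 1.22 without tumor 3. Tumor 3 thus held the highest value of both ratios.

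Ordered by mean FPKM, the members ran Mcl1, Bcl2, Bax, Bak1, Bcl2l11, Bbc3, Pmaip1, Bcl2l1, Bid and Bmf. Of the 9 neighbouring pairs in this order, 4 kept it in all 3 tumors, namely Bcl2 above Bax, Bax above Bak1, Bak1 above Bcl2l11 and Bid above Bmf. As deposited, the values of 3 pairs did not overlap between the tumors, namely Bax and Bak1, Bak1 and Bcl2l11, and Bid and Bmf. With median-of-ratios factors Bax and Bak1 overlapped, as Bax had 27.1 in tumor 1 and Bak1 had 28.9 in tumor 2. With FPKM rescaled to equal sums Bcl2 and Bax did not overlap, the lowest value of Bcl2 being 264.2 and the highest of Bax 251.2. Mcl1 and Bcl2 could not be ordered, because Mcl1 was above Bcl2 in tumor 1 alone, with ratios of Mcl1 to Bcl2 of 1.57, 0.818 and 0.763 in tumors 1, 2 and 3, and with median-of-ratios factors Bcl2 had the higher mean, 61.46 against 61.40. Nor did 1 order hold for Bcl2l11 and Bbc3, Bbc3 and Pmaip1, Pmaip1 and Bcl2l1, or Bcl2l1 and Bid. A two-sided exact permutation test of log2 FPKM, paired within tumors, gave p = 0.25 for the 4 pairs with 1 order and p of 0.75 or 1 for the others, and 0.25 is the smallest p that 3 tumors allow.

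The tumors did not share a common direction over the members. Among the 9 members with a mean of at least 1 FPKM, Mcl1 and Pmaip1 were highest in tumor 1, Bcl2l11, Bak1 and Bid in tumor 2, and Bcl2, Bcl2l1, Bax and Bbc3 in tumor 3. Of all 11197 genes with such a mean, tumor 1 held the highest value for 50.6%, tumor 2 for 33.7% and tumor 3 for 15.7%. The 4 members of tumor 3 were highest there under each of the 4 scalings tried, while the share of all genes highest in tumor 3 was 8.74% with FPKM rescaled to equal sums, 26.2% with median-of-ratios factors and 7.71% after division by the CD3 level. Divided by the level of the CD3 genes Cd3d, Cd3e and Cd3g, an alternative chosen after seeing the data, Bcl2l11 and Bid were highest in tumor 1 instead of tumor 2. With median-of-ratios factors the lowest tumor of Bcl2, Bax, Bak1 and Bid became tumor 1. The median of all these genes lay 0.14 above the mean of the tumors on the log2 scale in tumor 1 and -0.09 from it in tumor 3, and rescaling FPKM to equal sums moved these medians to 0.27 and -0.21.

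**Figure D4:**
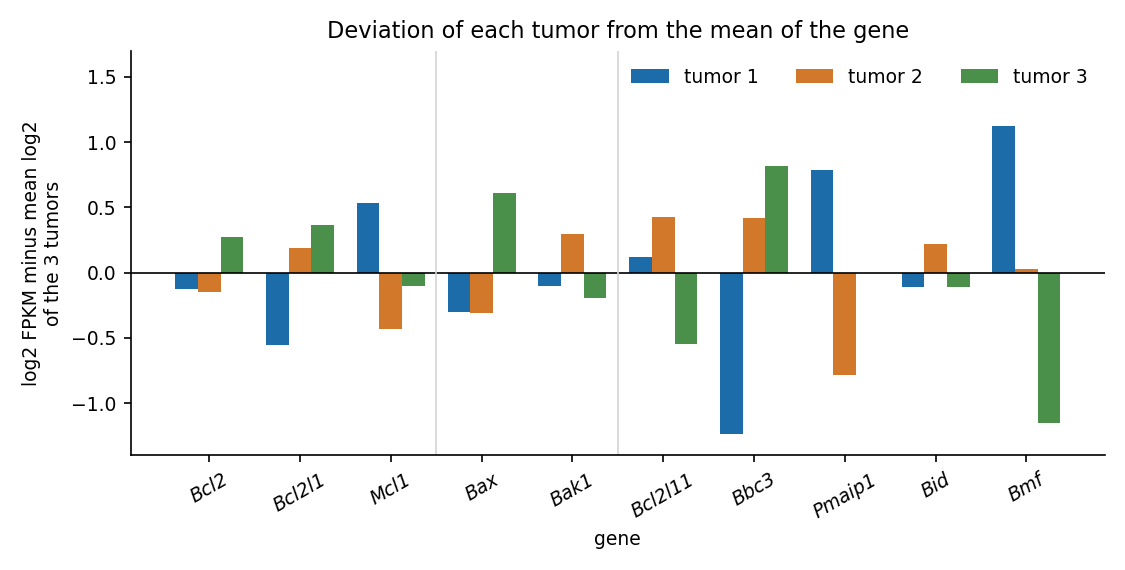
Log2 FPKM of each member in tumors 1, 2 and 3 minus the mean log2 FPKM of the gene over the 3 tumors (vertical axis). Bars above 0 mark a tumor higher than that mean, such as tumor 3 for Bbc3 (0.81) and tumor 1 for Pmaip1 (0.79), and Bbc3 in tumor 1 lies at -1.23.

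Spread between the tumors was set against all genes with a mean of at least 1 FPKM. A highest to lowest ratio of at least 2 was reached by 2 of the 9 members, Bbc3 and Pmaip1, and by 34.4% of these 11197 genes. As deposited, the share of members, 22.2%, was not above that of all genes. The median ratio was 1.89 over the 9 members and 1.68 over all these genes, or 1.57 over genes with a mean of 5 to 20 FPKM and 1.59 over those of 20 to 100 FPKM, the levels at which the 9 members lie. With tumor 1, 2 or 3 left out, the median over the members was 1.34, 1.58 and 1.31. Over all these genes it was then 1.32, 1.34 and 1.49, so the members were lower without tumor 3. Another 4 members lay just under 2, Bcl2l11 at 1.96, Mcl1 at 1.95, Bax at 1.89 and Bcl2l1 at 1.88, so the count moved with the scaling. It was 4 of 9 with FPKM rescaled to equal sums, where Bcl2l11 and Mcl1 joined, against 39.4% of all genes, and 4 of 9 with median-of-ratios factors, where Bax and Bcl2l1 joined, against 32.5%. The share of members was above that of all genes in both of these scalings but not after division by the CD3 level, where it was 4 of 9 against 47.1%. In that scaling Pmaip1 had a wider ratio than Bbc3, 3.90 against 3.16. As deposited, the count also rested on tumor 1, since no member and 16.4% of all genes reached a ratio of 2 between tumors 2 and 3. With FPKM rescaled to equal sums, Bcl2l11 did reach it between these tumors, at 2.12.

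**Figure D5:**
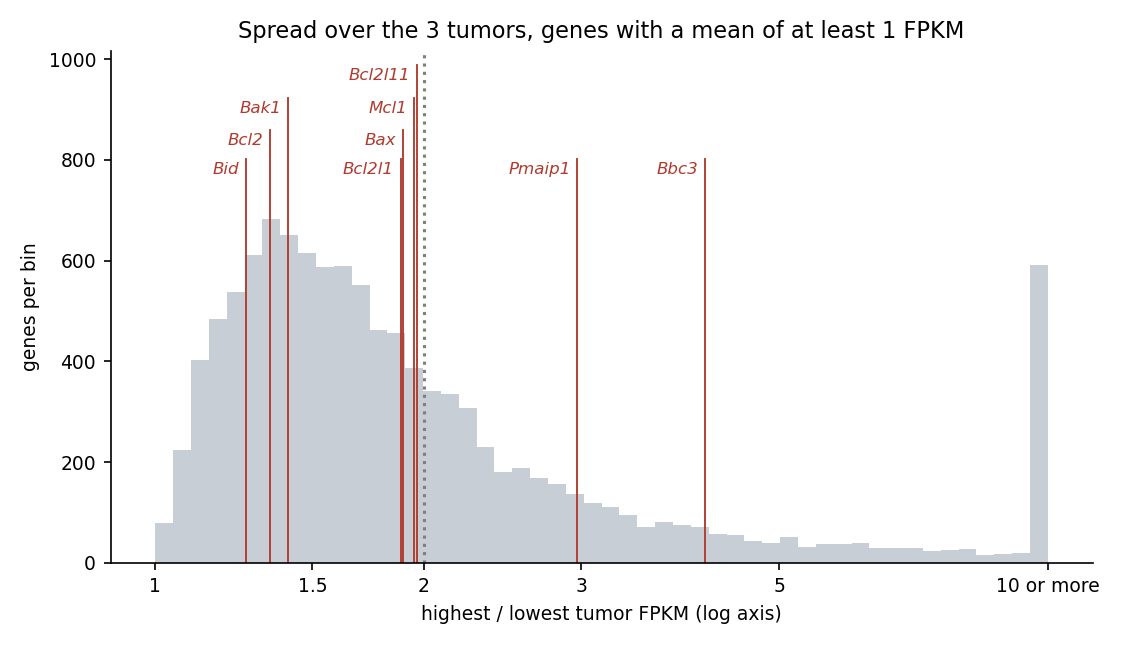
Histogram of the highest to lowest tumor ratio of FPKM (log axis) for the 11197 genes with a mean of at least 1 FPKM, the last bin holding ratios of 10 or more. Red lines mark the 9 members with such a mean, and the dotted line marks a ratio of 2, passed by Pmaip1 at 2.97 and Bbc3 at 4.13.

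Genes whose pattern over the 3 tumors was nearest to that of Bbc3 and Pmaip1 were found by the distance of log2(FPKM + 0.1), centred for each gene. Nearest to Bbc3 were Kcnk7 at a distance of 0.036, Ndufa4 at 0.069 and Clec2d at 0.11. Clec2d, a ligand of a natural killer cell receptor, had 205, 584 and 848 FPKM in tumors 1, 2 and 3, and Ndufa4, a mitochondrial respiratory chain protein, had 16.4, 47.7 and 63.4 FPKM. Nearest to Pmaip1 were Stk38 at 0.021, Naa15 at 0.023 and Gm42595 at 0.024, and Stk38, a protein kinase, had 29.5, 9.80 and 16.8 FPKM. Within a distance of 0.25 lay 22 of 11196 genes for Bbc3 and 231 for Pmaip1. The nearest other member was Bcl2l1 for Bbc3, at 0.84, and Mcl1 for Pmaip1, at 0.43. With 3 tumors such closeness describes these libraries only.

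The wider apoptosis machinery was expressed in all 3 tumors. Of 48 further genes in 9 pathway lists, 37 were above 1 FPKM in every tumor, against 28.4% of all genes. A mean of at least 1 FPKM was found for 41, and 13 of these, 31.7%, reached a highest to lowest ratio of 2, close to the 34.4% of all genes. The median ratio was 1.503 over the 41 genes. None of the 7 genes of the apoptosome and the released mitochondrial proteins reached a ratio of 2. Cytochrome c (Cycs) led this list with 28.2, 17.9 and 18.9 FPKM in tumors 1, 2 and 3, followed by the protease Htra2 with 12.2 to 14.8 FPKM and Aifm1 with 6.77 to 9.57 FPKM. Apaf1, the scaffold of the apoptosome, had 6.26, 3.82 and 4.37 FPKM and the widest ratio of the list, 1.64.

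Among the 5 caspases, Casp8, the initiator of the death receptor route, was the most abundant with 27.3, 25.2 and 22.6 FPKM. Casp2 had 7.16 to 8.60 FPKM. Of the 5 inhibitors of apoptosis (IAP), Xiap, Birc2 and Birc6 had similar means of 11.2, 11.2 and 10.9 FPKM, and Birc6 varied by a ratio of 1.06 only. Birc5, which encodes survivin and is expressed in dividing cells, had 21.5, 5.67 and 4.005 FPKM in tumors 1, 2 and 3. It was the IAP gene with a ratio above 2 and was highest in the tumor with the highest sum of dividing cell markers.

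The death receptor list had the highest median ratio of the 9 lists, 2.37 against 1.68 over all genes with a mean of at least 1 FPKM, with 5 of 8 genes past a ratio of 2 (34.4% of all genes). No test was made of these few genes. Fasl, the ligand by which cytotoxic T cells kill, had 8.08, 53.4 and 15.1 FPKM in tumors 1, 2 and 3. Tradd and Tnfrsf1a, parts of the TNF receptor complex, were highest in tumor 2 too, with 6.24, 15.4 and 9.57 FPKM and 9.57, 15.97 and 7.04 FPKM. The list was split, with 4 genes highest in tumor 2 and 4 in tumor 1, and Fas, the receptor of the Fasl product, was lowest in tumor 2 with 16.03, 4.83 and 8.88 FPKM. Cflar, Ripk1 and Fadd were lowest there as well. Tumor 2 also had the highest sums of acinar, fibroblast and natural killer cell markers, the last of which followed the order of Fasl, and their part in any of these levels was not tested.

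Genes known to act on the levels or activity of the family had a median ratio of 1.41, with 1 of 8 past a ratio of 2, against 34.4% of all genes and without a test. Ywhaz, a 14-3-3 protein that holds BAD in the cytosol, had 103, 107 and 93.1 FPKM in tumors 1, 2 and 3. Vdac2, a channel of the outer membrane that binds BAK, had 34.2, 19.9 and 22.9 FPKM. Foxo1, a transcription factor of resting T cells, was the exception with 15.1, 3.70 and 12.1 FPKM and a ratio of 4.08, lowest in tumor 2, where Bcl2l11 was highest. Foxo3, in the same list, was highest in tumor 2 as Bcl2l11 was, with 4.63, 6.84 and 5.56 FPKM in tumors 1, 2 and 3. The part of Foxo1 or Foxo3 in the level of Bcl2l11 was not tested. Trp53, the gene of p53, had 29.4, 22.2 and 26.4 FPKM. Bax, Bbc3 and Pmaip1 are known p53 targets, and their highest tumors were 3, 3 and 1, so these 3 genes did not share an order. The study reported lower p53 protein in Dnmt3b+/- lymphomas without lower Trp53 transcript, and the part of p53 in these levels was not tested. As deposited, Pmaip1 followed the order of Trp53, highest in tumor 1 and lowest in tumor 2, while Bax and Bbc3 did not. The order of Trp53 was not examined under the other scalings.

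RefSeq promoter windows (GRCm38.p6) were matched for the members by symbol, and 9 members on chromosomes other than 18 gave 16 windows of 250 bases before an annotated start. The windows held between 0 and 37 CpG dinucleotides, with a median of 16 against a median of 6 over all 32851 windows of 27025 genes, and windows of 1 gene can overlap. This background was not limited to expressed genes, so the difference is not shown to be particular to the family. No link between CpG number and level was tested. In order of level, Mcl1 had 26 CpG, Bcl2 36, Bax 14, Bak1 8, Bcl2l11 24 and 30, Bbc3 27, 23 and 37, Bcl2l1 0, 11 and 12 and Bid 18, and the 3 windows of Bmf, the lowest member, held 3, 5 and 8. The window of Bak1 and 2 of the 3 of Bcl2l1 lie wholly within annotated exons. Methylation of these windows was not analysed here.

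A total of 3 motifs were searched on both strands. CACGTG, the E-box of the MYC family, lay in windows of 2 of the 9 members, Bax and Bbc3, or 2 of the 16 windows, against 6.02% of all windows. TGTTTAC, a core sequence bound by forkhead factors such as FOXO1, lay in windows of 2 members, Bcl2l11 and Bbc3, or 2 of the 16, against 3.17% of all windows. GGGCGG, the GC box, lay in windows of 6 members, or 9 of the 16, against 32.7% of all windows. A match is a description of the letters and not evidence of binding. The window of Bax is shown with the E-box in capitals, 9 bases before the start, and those of Bcl2l11 and Bbc3 with the forkhead match in capitals, TGTTTAC reading as GTAAACA on the other strand, because these genes had the highest effector level, the highest BH3-only level and the widest spread of the members with a mean of at least 1 FPKM. They lie at chr7:45466899-45467148 (minus strand), chr2:128125788-128126037 (plus strand) and chr7:16310011-16310260 (plus strand), the last of these before 1 of 3 annotated starts of Bbc3.
Bax: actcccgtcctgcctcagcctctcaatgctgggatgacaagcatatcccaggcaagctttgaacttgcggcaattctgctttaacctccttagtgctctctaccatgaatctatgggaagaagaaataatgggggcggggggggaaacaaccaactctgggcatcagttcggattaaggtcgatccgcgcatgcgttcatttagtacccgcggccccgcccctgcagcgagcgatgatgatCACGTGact
Bcl2l11: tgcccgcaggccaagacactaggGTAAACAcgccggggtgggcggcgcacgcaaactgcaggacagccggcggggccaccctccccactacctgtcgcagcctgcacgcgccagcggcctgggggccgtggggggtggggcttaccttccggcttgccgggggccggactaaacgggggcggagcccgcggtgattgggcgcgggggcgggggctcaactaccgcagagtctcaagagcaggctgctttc
Bbc3: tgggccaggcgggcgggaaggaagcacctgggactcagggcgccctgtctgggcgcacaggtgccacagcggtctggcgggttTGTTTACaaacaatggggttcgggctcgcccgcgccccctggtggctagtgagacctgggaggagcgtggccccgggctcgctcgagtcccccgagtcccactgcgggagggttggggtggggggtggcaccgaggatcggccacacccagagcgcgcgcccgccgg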

How the data were processed

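RNA-seq was analysed for 3 Dnmt3b+/- PTCL. Per the study's methods, STAR placed the reads on mm10 and SeqMonk quantified genes from reads past a mapping quality limit, and the authors deposited linear FPKM for each tumor. Strand and annotation release are not given in the sources used here. The 3 bisulfite samples were not analysed here, nor were control libraries, so no test between groups was made. The members and gene lists were chosen with earlier results of these data known. Depth was recovered from genes without a read, which hold the FPKM of 0.9 read, with exon lengths of GENCODE M21 limited to the bounds in the table. Reads were whole, within 0.02, in all 3 tumors for 94.3% of 34110 genes and for all 10 members. FPKM are not counts, and no count model was fitted. Symbols turned into dates (26) were restored from Ensembl identifiers. Ratios are the highest over the lowest tumor FPKM, with exact (Clopper-Pearson) 95% intervals. Members were compared with an exact permutation test. The floor for a gene without a read was 3 reads. Genes named are the members, family genes above 1 FPKM in any tumor, in other lists the 3 most abundant genes and the most variable one with a mean of at least 1 FPKM, the most abundant marker of each list, and the 3 genes nearest in pattern to the 2 most variable members. Others (genes without reads, low family genes, Cd4, CD3 genes, Foxo3 and genes that depart from the order of their list) were named after their values were seen. Some genes that this rule covers are not reported here. Alternatives were 3 scalings (1 chosen after seeing the data), pseudocounts of 0.1 and 1 FPKM, other thresholds, other gene sets, and omission of single tumors. The recovery of depth and the ratio of at least 2 were tested on simulated data, and the other calculations were not. Apart from planted changes, the simulated tumors differed by depth and counting error only, unlike real tumors. SciPy 1.17.1, NumPy 2.4.6 and pandas 2.3.3 were used in Python 3.11, and figures were drawn with matplotlib 3.10.9.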

Additional observations from a re-analysis of the deposited data

How the results depend on the processing

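Of 94 alternative values computed, 74 moved by at most 1 SD of the tumors or at most 1.5 times, and 20 moved further. These 20 include the means of all 10 members rescaled to sum to 1000000, which take another unit. The number of members with a highest to lowest ratio of at least 2 was 2 as deposited. It was 4 with FPKM rescaled to equal sums, 4 with median-of-ratios factors, 4 with FPKM divided by the level of Cd3d, Cd3e and Cd3g (chosen after seeing the data), 6 at a threshold of 1.5 and 1 at a threshold of 3. Shares of all genes in these settings were 39.4%, 32.5%, 47.1%, 62.8% and 16.4%. The count was 3, against 46.6%, with all genes above 0.2 FPKM in any tumor, where Bmf joined. As deposited and with 1 tumor left out, it was 0 without tumor 1, 1 without tumor 2 and 2 without tumor 3. Shares of all genes were then 16.4%, 17.7% and 25.2%. Of the 9 neighbouring pairs, 6 kept their order without tumor 1, 4 without tumor 2 and 5 without tumor 3, against 4 with all tumors. The mean survival to BH3-only ratio of 3.47 became 7.06 with geometric means, 1.82 without Mcl1 and 6.99 without Pmaip1 and Bbc3, the last chosen after seeing the data, because each changes the genes or weights in the sum. Rescaled to sum to 1000000 in each tumor, the means take another unit and were 295.9 for Bcl2, 37.9 for Bcl2l1, 309.5 for Mcl1, 64.5 for Bcl2l11, 184 for Bax, 114 for Bak1, 45.4 for Bbc3, 42.4 for Pmaip1, 31.9 for Bid and 1.88 for Bmf. The count of members above 1 FPKM in every tumor was 9 in all settings but a threshold of 5 FPKM, where it was 7, and shares of all genes ran from 14.1% at that threshold to 36.7% at 0.2 FPKM. No paired analysis was possible because the RNA-seq data hold 1 group, so replicate numbers could not pair groups of samples (bisulfite samples that share them were not analysed here). The permutation test pairs genes within a tumor instead. The mean of Bmf went from 0.370 FPKM to 0.224 without tumor 1. Bmf, with 15 to 107 reads, and the Bcl2a1 copies are limited by depth.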
